A study of Mus musculus with 18 samples.

Results

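The kinesins are a family of motor proteins that use ATP to walk along microtubules or to take them apart. They were chosen here as every gene on the array whose symbol is Kif followed by a number, with or without a letter. This rule gave 37 genes, measured by 42 probes, of 19935 genes with a value. Where a gene had more than 1 probe, as Kif14, Kif26b, Kif1c, Kif6 and Kif7 did, its brightest probe by mean log2 intensity on all 18 arrays stands for it. By their textbook roles 13 of the genes are mitotic kinesins, 15 are transport kinesins and 9 are ciliary kinesins or kinesins of other roles.

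Mitotic kinesins push spindle poles apart, move and align chromosomes, trim microtubule ends and build the midzone at which the cell divides. Many of them are made mainly in G2 and M phase of the cell cycle. Transport kinesins carry vesicles, organelles and protein complexes towards microtubule plus ends and are best known from neurons. Embryonic stem cells divide fast and spend much of their cycle in S, G2 and M phase.

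The study measured mouse embryonic stem cells on Affymetrix whole-transcript arrays, with the stated aim of finding changes in expression after adriamycin that depend on p53, the transcription factor that responds to DNA damage. The mouse embryonic stem cell line R1E was treated with 0.5 µM adriamycin for 8 hours (4 arrays), given 25 J/m2 of UV light and taken at 8 hours (4 arrays), or mock treated (4 arrays). Embryonic stem cells of genotype p53-/- and background 129X1 x 129S1 were treated with 0.5 µM adriamycin for 8 hours (3 arrays) or left untreated (3 arrays). Adriamycin (doxorubicin) poisons topoisomerase II and breaks DNA, whereas UV light makes bulky lesions on the bases. All cells grew in serum medium with leukemia inhibitory factor. Whether replicate arrays stem from separate cultures is not stated, so the spread behind each p-value may be only technical. The R1E and p53-/- arrays were normalized separately, so levels are never set against each other across them. Only the choice of a gene's probe pooled the levels of both sets. The p53 transcript itself was not analysed here.

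Values are log2 intensities, and array medians lay between 5.30 and 5.61. A gene was called changed at a Benjamini-Hochberg adjusted p below 0.05 in limma, adjusted over all 19935 genes. The stem cell state was read from 8 marker genes (Pou5f1, Nanog, Sox2, Zfp42, Esrrb, Klf4, Tdgf1 and Dppa5a), and all 8 were above background in every group. Their summed linear intensity was 15073 to 16445 on the adriamycin arrays, 18637 to 19382 on the UV arrays and 21678 to 22534 on the mock arrays of R1E cells. In p53-/- cells it was 14263 to 14685 after adriamycin and 14394 to 14950 untreated. Of 8 fibroblast markers, listed in case feeder cells were present, 5 were above background in R1E cells, with Dcn, Lum and Postn below it, and 7 in p53-/- cells, with Lum below it. Their summed intensity was 424 to 470 after adriamycin, 409 to 457 after UV and 372 to 421 in mock R1E cells, and 1785 to 2266 after adriamycin against 2086 to 2657 in untreated p53-/- cells. The part of these shifts in the kinesin results was not tested. In a bulk sample, fewer cells in a phase or of a type and less RNA per cell cannot be told apart.

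Of the 37 kinesins, 35 had a mean in R1E cells above 4.31, the 95th percentile of olfactory and vomeronasal receptor genes, which serve here as a background level. The other 2, Kif2b and Kif27, lay below it.

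After adriamycin in R1E cells most mitotic kinesins were lower, while the largest changes among transport kinesins were rises. Of the 13 mitotic kinesins, 10 fell, 2 rose and 1 was not called. Of the 15 transport kinesins, 7 rose, 3 fell and 5 were not called. In all, 26 of 37 kinesins were called, 12 higher and 14 lower, in a comparison in which 47.7% of all genes were called, 22.1% higher and 25.6% lower. The median log2 change was -0.49 over the mitotic kinesins and 0.16 over the transport kinesins, beside -0.02 over all genes tested. Centring each array on its median shifted the median log2 change of all genes by -0.13, and 25.4% of called genes were then higher in place of 46.3%. Under that centring 12 kinesins were higher and 16 lower, and the transport median was 0.03.

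**Figure D1:**
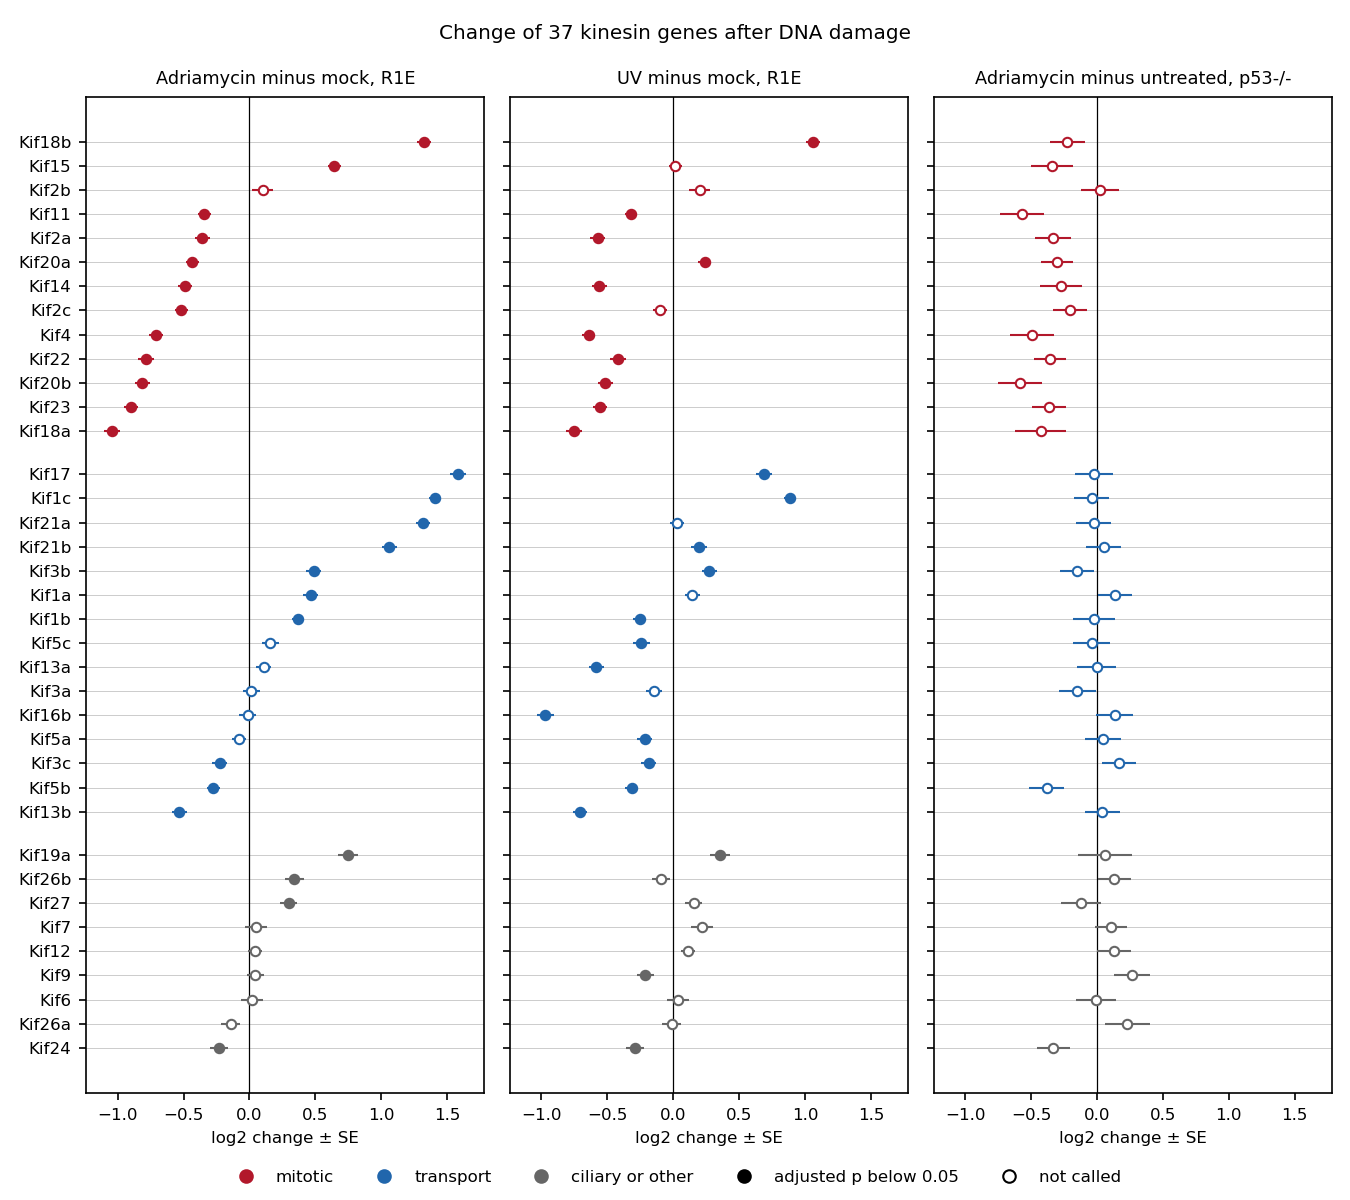
Log2 change with its standard error of each of the 37 kinesin genes, ordered within class by the change after adriamycin in R1E cells, for adriamycin minus mock and UV minus mock in R1E cells (4 arrays a group) and adriamycin minus untreated in p53-/- cells (3 arrays a group). Filled points have an adjusted p below 0.05; 26, 25 and 0 of the 37 genes are filled in the left, middle and right panels.

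Kif18a fell most among the mitotic kinesins. This motor sits at the plus ends of kinetochore microtubules and damps the swings of chromosomes at metaphase. Its log2 intensity was 7.03, 6.88, 6.96 and 6.94 on the adriamycin arrays, against 8.05, 8.07, 7.97 and 7.91 on the mock arrays. All adriamycin arrays were below all mock arrays, at a log2 change of -1.04 ± 0.06 (SE, adjusted p = 2.32e-10), which is 2.06-fold lower.

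Kif23, which with Racgap1 forms the centralspindlin complex of the midzone, followed. It read 9.56, 9.54, 9.67 and 9.62 after adriamycin, against 10.56, 10.51, 10.50 and 10.42 in mock cells. The groups did not overlap, and the log2 change was -0.90 ± 0.05 (SE, adjusted p = 3.12e-10). Kif20b, a motor of the late steps of cytokinesis, read 8.87, 8.79, 8.91 and 8.78 after adriamycin, against 9.76, 9.66, 9.61 and 9.58 in mock cells. It was lower on every adriamycin array, by a log2 change of -0.81 ± 0.06 (SE, adjusted p = 3.4e-09).

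Kif11, also known as Eg5, slides antiparallel microtubules apart and so makes the spindle bipolar. It had log2 intensities of 9.58, 9.51, 9.54 and 9.45 on adriamycin arrays, against 9.88, 9.85, 9.87 and 9.83 on mock arrays. The groups were apart, but the fall was among the smaller ones of the class, at -0.34 ± 0.05 (SE, adjusted p = 9.84e-06).

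The other mitotic kinesins that fell span the same range. The chromosome-arm motors Kif22 and Kif4 fell by 0.78 and 0.71 on the log2 scale. Kif2c, which takes microtubules apart at centromeres and corrects wrong attachments, fell by 0.52, and its relative Kif2a, which acts at spindle poles and also in neurons, by 0.36. Kif14 and Kif20a, both motors of cytokinesis, fell by 0.49 and 0.43. For each of these 6 genes the adriamycin arrays were all below the mock arrays. A second, dim probe of Kif14, with a mean of 2.74 that is below the background level, stood at -0.04 ± 0.06 (SE).

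2 mitotic kinesins went the other way. Kif18b binds growing astral microtubules and works with Kif2c to shorten them. It read 10.61, 10.58, 10.57 and 10.60 after adriamycin, against 9.32, 9.17, 9.28 and 9.28 in mock cells. No array of either group came near the other group, and the log2 change was 1.33 ± 0.05 (SE, adjusted p = 4.78e-12), or 2.51-fold higher. Kif15, a spindle motor that can share the work of Kif11, read 9.63, 9.55, 9.59 and 9.50 after adriamycin, against 9.0, 8.92, 8.92 and 8.85 in mock cells. It was higher on all adriamycin arrays, by 0.64 ± 0.05 (SE, adjusted p = 1.05e-08). Kif2b was not called, at 0.10 ± 0.08 (SE). Of the 13 mitotic kinesins, 12 had groups that did not overlap, as 45.6% of all genes did.

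Most promoters of the mitotic kinesins hold the short element that many genes of G2 and M phase share, and it was present on both sides of this split. The element is called the cell cycle genes homology region (CHR), and it was searched as TTTGAA on both strands, along with the CCAAT box, searched as CCAAT on both strands. A promoter window, from 250 bases before to 50 bases after the annotated start, was held in the RefSeq table (GRCm38.p6) for 31 of the 37 kinesins. TTTGAA was found in 9 of 12 mitotic kinesins, 1 of 11 transport kinesins and 2 of 8 others, beside 20.2% of the 27025 genes in the table. CCAAT was found in 7 of 12, 3 of 11 and 4 of 8 of them, beside 41.1% of all genes. TTTGAA was found in 7 of the 9 mitotic kinesins that fell after adriamycin and have a window, and in both that rose, Kif18b and Kif15. Lying wholly within 25 bases of the start, a limit set after the positions were seen, it was found in 7 of 12 mitotic, 0 of 11 transport and 1 of 8 other kinesins, and in 2.88% of all genes. The ten-base half-site of the p53 response element was found in 3 of the 31 windows, those of Kif23, Kif16b and Kif26b, beside 9.55% of all genes. A match is a description of letters and shows no binding.

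The windows below, from 170 bases before to 30 bases after the RefSeq start, are shown to set side by side 2 mitotic kinesins that fell after adriamycin (Kif23 and Kif11), 2 that rose (Kif18b and Kif15) and the transport kinesin that rose most (Kif17). Each is written 5′ to 3′ on the gene's own strand, and capitals mark TTTGAA or CCAAT or their reverse complements, TTCAAA and ATTGG.
Kif23 (chr9:61946770-61946969, minus strand, GRCm38.p6): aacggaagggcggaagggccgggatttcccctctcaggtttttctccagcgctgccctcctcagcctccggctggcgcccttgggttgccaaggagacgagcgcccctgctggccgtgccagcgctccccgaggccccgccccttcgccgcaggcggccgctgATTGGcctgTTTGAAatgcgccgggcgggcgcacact
Kif11 (chr19:37376212-37376411, plus strand, GRCm38.p6): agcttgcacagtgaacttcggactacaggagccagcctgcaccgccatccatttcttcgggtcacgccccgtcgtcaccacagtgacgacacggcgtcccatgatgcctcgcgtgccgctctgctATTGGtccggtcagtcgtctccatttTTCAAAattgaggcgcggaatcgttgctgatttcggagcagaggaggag
Kif18b (chr11:102925095-102925294, minus strand, GRCm38.p6): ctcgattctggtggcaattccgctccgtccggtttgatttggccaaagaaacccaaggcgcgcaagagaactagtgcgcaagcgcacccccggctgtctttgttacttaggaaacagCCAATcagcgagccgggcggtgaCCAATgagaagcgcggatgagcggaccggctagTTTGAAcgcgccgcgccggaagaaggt
Kif15 (chr9:122950911-122951110, plus strand, GRCm38.p6): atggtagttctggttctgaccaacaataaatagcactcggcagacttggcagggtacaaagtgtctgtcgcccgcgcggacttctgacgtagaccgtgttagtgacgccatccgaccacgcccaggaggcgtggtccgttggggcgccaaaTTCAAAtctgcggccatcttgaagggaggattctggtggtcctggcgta
Kif17 (chr4:138262081-138262280, plus strand, GRCm38.p6): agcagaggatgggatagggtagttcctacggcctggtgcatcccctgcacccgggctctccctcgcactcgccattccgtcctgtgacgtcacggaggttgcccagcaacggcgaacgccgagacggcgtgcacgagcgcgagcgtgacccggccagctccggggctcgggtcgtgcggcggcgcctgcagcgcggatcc
Counting the last base before the start as -1 and the first base after it as 1, the TTTGAA match runs over 3 to 8 in Kif23 and 4 to 9 in Kif18b. In Kif11 and Kif15 the reverse complement runs over -19 to -14. The Kif17 window holds neither motif.

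Among the transport kinesins, Kif17 rose most. It carries receptor vesicles in dendrites and also enters cilia. Its log2 intensity was 6.68, 6.59, 6.65 and 6.57 on the adriamycin arrays, against 5.03, 5.17, 4.93 and 5.02 on the mock arrays. The groups were far apart, at 1.58 ± 0.06 (SE, adjusted p = 2.87e-12).

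Kif1c, a motor of Golgi and secretory vesicles, read 8.65, 8.69, 8.69 and 8.72 after adriamycin, against 7.33, 7.23, 7.26 and 7.29 in mock cells. It was 2.65-fold higher, at a log2 change of 1.41 ± 0.05 (SE, adjusted p = 3.12e-13). Its second probe stood at 1.73 ± 0.08 (SE).

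Kif21a and Kif21b are relatives that restrain microtubule growth, best known from axons. Kif21a read 7.52, 7.41, 7.54 and 7.57 after adriamycin, against 6.30, 6.09, 6.20 and 6.17 in mock cells, a log2 change of 1.32 ± 0.05 (SE, adjusted p = 5.57e-12). Kif21b read 7.97, 8.02, 8.01 and 7.91, against 6.97, 6.91, 6.82 and 6.96, a change of 1.06 ± 0.06 (SE, adjusted p = 2.28e-10). For both, every adriamycin array was above every mock array.

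The remaining changes among transport kinesins were smaller. Kif3b, a subunit of the kinesin-2 motor of intraflagellar transport, rose by 0.49 on the log2 scale. Kif1a and Kif1b, which carry precursors of synaptic vesicles, rose by 0.46 and 0.37. Kif13b, which carries Dlg1 and phosphoinositide vesicles, read 7.80, 7.72, 7.90 and 7.89 after adriamycin, against 8.38, 8.30, 8.45 and 8.30 in mock cells, and fell by 0.53 (adjusted p = 5.75e-07). Kif5b, the kinesin-1 heavy chain that most tissues use, read 9.28, 9.28, 9.35 and 9.20, against 9.53, 9.59, 9.54 and 9.53. All its adriamycin arrays were below the mock arrays, at -0.27 ± 0.05 (SE, adjusted p = 0.00022). Kif3c, a further kinesin-2 subunit, fell by 0.23.

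Kif3a, the partner of Kif3b, was not called. It read 6.89, 6.71, 6.94 and 6.77 after adriamycin, against 6.94, 6.69, 6.83 and 6.79 in mock cells. The groups overlapped throughout, at 0.01 ± 0.06 (SE, adjusted p = 0.897). Also not called were Kif5c at 0.16, Kif13a at 0.11, Kif16b at -0.01 and Kif5a at -0.08 on the log2 scale.

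Of the 9 ciliary and other kinesins, 3 rose, 1 fell and 5 were not called, with a median log2 change of 0.04. Kif19a, which shortens microtubules at the tips of cilia, read 5.95, 6.05, 6.10 and 6.09 after adriamycin, against 5.16, 5.18, 5.29 and 5.57 in mock cells. The groups did not overlap and the change was 0.75 ± 0.08 (SE, adjusted p = 4.2e-07).
Kif26b, a developmental kinesin known from the kidney, read 4.87, 4.99, 4.70 and 4.87, against 4.4, 4.58, 4.64 and 4.44, all close to the background level, a change of 0.34 ± 0.07 (SE, adjusted p = 0.00073). Its second probe stood at 0.18 ± 0.08 (SE). Kif27, a ciliary kinesin, read 4.56, 4.47, 4.33 and 4.41, against 4.21, 4.07, 4.10 and 4.21 on mock arrays, which are all under the background level of 4.31 (0.30 ± 0.06, SE, adjusted p = 0.000867). Kif24, which holds back the assembly of cilia, read 6.82, 6.84, 7.08 and 7.05, against 7.24, 7.16, 7.21 and 7.10, and fell by 0.23. The 5 not called were Kif7, a ciliary-tip protein of Hedgehog signalling, and Kif6, Kif9, Kif12 and Kif26a, at -0.14 to 0.05. The second probe of Kif7 stood at 0.13 ± 0.06 (SE). That of Kif6, with a mean of 4.18 below the background level, stood at 0.23 ± 0.07 (SE).

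**Figure D2:**
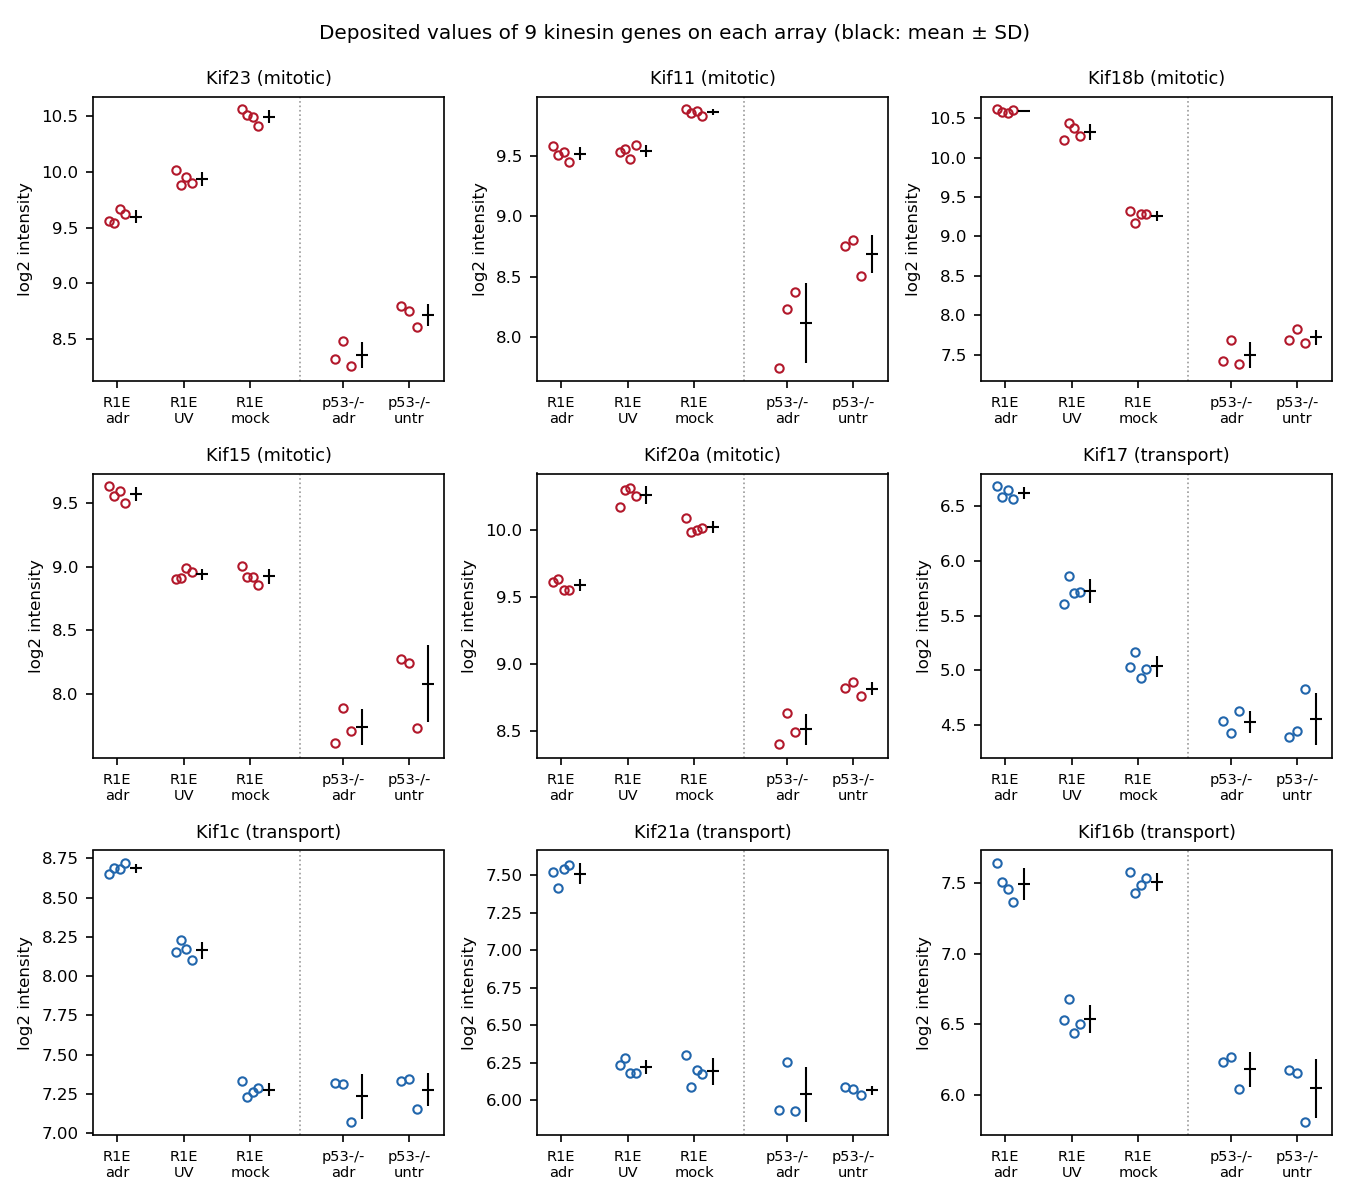
Log2 intensity of 9 kinesin genes on every array (open circles), with the mean and SD of each group in black; adr is adriamycin and untr is untreated, and the dotted line separates the R1E arrays (4 a group) from the p53-/- arrays (3 a group), which were normalized separately and are not comparable in level. In R1E cells the adriamycin and UV arrays of Kif18b lie at 10.22 to 10.61, against 9.17 to 9.32 on mock arrays, and Kif16b lies at 6.44 to 6.68 on UV arrays, against 7.43 to 7.58 on mock arrays.

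After UV in R1E cells most kinesins that changed were lower, in the transport class as well. In all 25 of 37 were called, 7 higher and 18 lower, where 43.9% of all genes were called, 22.6% higher and 21.2% lower. Of the mitotic kinesins 8 fell, 2 rose and 3 were not called, and of the transport kinesins 8 fell, 4 rose and 3 were not called. The median log2 change was -0.42 for mitotic and -0.19 for transport kinesins, beside 0.03 over all genes. After centring on array medians, 35.3% of called genes were higher in place of 51.6%, and 6 kinesins were higher and 20 lower. These values rest on the same 4 mock arrays as those after adriamycin, so the 2 contrasts are not independent.

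The mitotic kinesins with the largest UV changes were Kif18b, Kif18a, Kif4 and Kif2a. Kif18b read 10.22, 10.43, 10.37 and 10.27 on UV arrays, against 9.32, 9.17, 9.28 and 9.28 on mock arrays, a log2 change of 1.06 ± 0.05 (SE, adjusted p = 2e-10). Kif18a read 7.29, 7.24, 7.34 and 7.11, against 8.05, 8.07, 7.97 and 7.91, a change of -0.75 ± 0.06 (SE, adjusted p = 2.31e-08). Both genes had groups that did not overlap.

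Kif4 helps to shape chromosomes and the midzone. It read 7.93, 7.96, 8.03 and 8.04 after UV, against 8.69, 8.63, 8.61 and 8.60 in mock cells, and fell by 0.64 (adjusted p = 2.69e-08). Kif2a read 8.85, 8.75, 8.86 and 8.82, against 9.42, 9.46, 9.35 and 9.35, and fell by 0.57 (adjusted p = 2.15e-07). Both were lower on every UV array. Groups did not overlap for 12 of 13 mitotic and 11 of 15 transport kinesins after UV, as for 40.7% of all genes. These 12 include rises as well as falls. They also include Kif2c and Kif2b, which were not called, and Kif2b lay below the background level.

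Kif23 read 10.02, 9.88, 9.96 and 9.90 after UV, against 10.56, 10.51, 10.50 and 10.42 in mock cells, a change of -0.56 ± 0.05 (SE, adjusted p = 1.83e-07). Kif11 read 9.53, 9.56, 9.47 and 9.59, against 9.88, 9.85, 9.87 and 9.83, a change of -0.32 ± 0.05 (SE, adjusted p = 2.51e-05). Neither gene had groups that overlapped. Kif14 fell by 0.56, Kif20b by 0.52 and Kif22 by 0.42 on the log2 scale. Kif20a, which brings the chromosomal passenger complex to the midzone, rose: it read 10.18, 10.30, 10.32 and 10.26 after UV, against readings between 9.99 and 10.09 on the 4 arrays of mock cells, a change of 0.24 ± 0.05 (SE, adjusted p = 0.000768). The groups were apart but close. Kif15 at 0.02, Kif2c at -0.10 and Kif2b at 0.20 were not called.

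In the transport class Kif16b moved most after UV. This motor carries early endosomes towards the cell edge. It read 6.53, 6.68, 6.44 and 6.50 on UV arrays, against 7.58, 7.43, 7.49 and 7.54 on mock arrays. The groups were far apart, at -0.97 ± 0.07 (SE, adjusted p = 4.44e-09), or 1.96-fold lower.

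Kif13b read 7.60, 7.73, 7.68 and 7.60 after UV, against 8.38, 8.30, 8.45 and 8.30 in mock cells, and fell by 0.71 (adjusted p = 3.14e-08). Its relative Kif13a, which carries mannose 6-phosphate receptors and recycling endosomes, fell by 0.58 (adjusted p = 2.97e-07). Both had UV arrays that were all below the mock arrays. Kif5b read 9.21, 9.15, 9.27 and 9.31, against 9.53, 9.59, 9.54 and 9.53, and fell by 0.32. Kif1b, Kif5c, Kif5a and Kif3c fell by 0.26, 0.24, 0.22 and 0.19, and the call of Kif3c was lost without mock replicate 3 (adjusted p = 0.0601).

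Kif1c and Kif17 were the transport kinesins that rose most after UV. Kif1c read 8.15, 8.23, 8.17 and 8.10 on UV arrays, against 7.33, 7.23, 7.26 and 7.29 on mock arrays, a change of 0.89 ± 0.05 (SE, adjusted p = 2.33e-10). Kif17 read 5.61, 5.87, 5.71 and 5.72, against 5.03, 5.17, 4.93 and 5.02, a change of 0.69 ± 0.06 (SE, adjusted p = 1.42e-07). In both genes the UV arrays stood above all mock arrays. Kif3b rose by 0.27 and Kif21b by 0.19, and the call of Kif21b was lost with arrays centred and without UV replicate 2 or mock replicate 3 (largest adjusted p = 0.131). Kif21a at 0.03, Kif1a at 0.14 and Kif3a at -0.15 were not called.
Kif3a read 6.75, 6.65, 6.64 and 6.62 after UV, against 6.94, 6.69, 6.83 and 6.79, and these groups overlapped.

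In the ciliary and other class 1 gene rose after UV, 2 fell and 6 were not called. Kif19a read 5.73, 5.67, 5.66 and 5.57, against 5.16, 5.18, 5.29 and 5.57, a change of 0.36 ± 0.08 (SE, adjusted p = 0.00119), although the highest mock array reached the lowest UV array. Kif24 read 6.79, 6.84, 6.88 and 7.03, against 7.24, 7.16, 7.21 and 7.10, and fell by 0.29. Kif9, known from the sperm flagellum, read 4.31, 4.42, 4.56 and 4.61, against 4.68, 4.67, 4.76 and 4.64, near the background level, and fell by 0.21 (adjusted p = 0.0118). Kif7 at 0.22 was not called with the probe used, while its second probe stood at 0.38 ± 0.06 (SE). In R1E cells that second probe was the brighter, with a mean of 7.17 against 7.08. For adriamycin against UV it stood at -0.25 ± 0.06 (SE), while the probe used stood at -0.17 and was not called.

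Set directly against each other, the agents differed in both classes, in 1 direction among transport kinesins and in both among mitotic kinesins. Of 37 kinesins 17 were higher after adriamycin than after UV and 6 lower, where 42.0% of all genes were called, 19.8% higher and 22.2% lower. Among the transport kinesins 11 of 15 were higher after adriamycin and 0 lower, with a median log2 difference of 0.40, beside -0.04 over all genes. Among the mitotic kinesins 3 were higher and 6 lower, with a median of -0.10. Groups did not overlap for 10 of the transport and 9 of the mitotic kinesins, as for 38.3% of all genes. The share of called genes that were higher was 47.2%, and 34.7% with arrays centred, when 16 kinesins were higher and 8 lower.

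Kif21a differed most, at 7.52, 7.41, 7.54 and 7.57 after adriamycin, against 6.23, 6.28, 6.19 and 6.19 after UV. The groups were far apart, at a difference of 1.29 ± 0.05 (SE, adjusted p = 6.62e-11). Kif16b followed, at 7.64, 7.51, 7.46 and 7.37 after adriamycin, against 6.53, 6.68, 6.44 and 6.50 after UV, a difference of 0.96 ± 0.07 (SE, adjusted p = 8.36e-09). Kif17 and Kif21b were higher after adriamycin than after UV by 0.89 and 0.87. Kif13a, Kif1b and Kif1c were so by 0.69, 0.62 and 0.52, and Kif5c by 0.40.
The call of Kif13b, at a difference of 0.18 (adjusted p = 0.0195), was lost with arrays centred and without adriamycin replicate 3 or 4 or UV replicate 1 or 4 (largest adjusted p = 0.0635).

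Within the mitotic class the agents differed in both directions. Kif20a read 9.62, 9.64, 9.55 and 9.55 after adriamycin, against 10.18, 10.30, 10.32 and 10.26 after UV, a difference of -0.67 ± 0.05 (SE, adjusted p = 1.78e-08). Kif15 read 9.63, 9.55, 9.59 and 9.50, against 8.90, 8.91, 8.99 and 8.96, a difference of 0.63 ± 0.05 (SE, adjusted p = 3.88e-08). The groups of both were apart. Kif2c, Kif22 and Kif23 were lower after adriamycin than after UV by log2 differences of -0.42, -0.37 and -0.34. Kif11 at -0.02 ± 0.05 (SE), Kif4 at -0.07 and Kif14 at 0.07 were not called.

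The length of a kinesin gene went with its change after UV. Gene spans were taken from RefSeq (GRCm38.p6), and their medians were 45.5 kb for mitotic, 46.6 kb for transport and 48.4 kb for other kinesins. Of the 9 kinesins over 100 kb, 6 fell after UV and 0 rose, while 12 fell and 7 rose of the 28 up to 100 kb. After adriamycin 2 fell and 3 rose of the 9, and 12 fell and 9 rose of the 28. Of the 2298 genes of all kinds over 100 kb, 48.1% were lower and 8.75% higher after UV, against 17.7% lower and 24.5% higher of the 17618 shorter ones. After adriamycin 26.2% of all long genes were lower and 27.9% higher. Over the 37 genes, Spearman's rho of span against log2 change was -0.48 after UV and 0.04 after adriamycin. Within the mitotic and transport classes it was -0.70 and -0.68 after UV, and -0.16 and -0.25 after adriamycin. For adriamycin in p53-/- cells rho was 0.08 over the 37 genes, -0.44 within the mitotic class and 0.43 within the transport class. These are correlations across genes, which share arrays and a control group and are not independent replicates. The lower level of long genes after UV was already known from these data.

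The 6 transport kinesins over 100 kb show it gene by gene. Kif16b (283 kb), Kif13a (181 kb), Kif13b (157 kb), Kif5c (155 kb) and Kif1b (131 kb) fell after UV, and Kif21a (117 kb) was not called. Their median log2 change was -0.42 after UV and 0.13 after adriamycin. The 9 shorter transport kinesins had medians of 0.14 after UV, with 4 higher and 3 lower, and 0.46 after adriamycin. In the direct comparison all 6 long ones were higher after adriamycin than after UV, at a median difference of 0.66, as were 54.4% of all genes over 100 kb. Kif13b, at a difference of 0.18, had groups that overlapped, and its call was lost under some alternatives, as given above. Of the other long kinesins, the mitotic Kif4 (101 kb) fell after UV, while Kif6 (295 kb) and Kif26b (404 kb), both close to the background level, were not called, at log2 changes of 0.04 and -0.09.

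**Figure D3:**
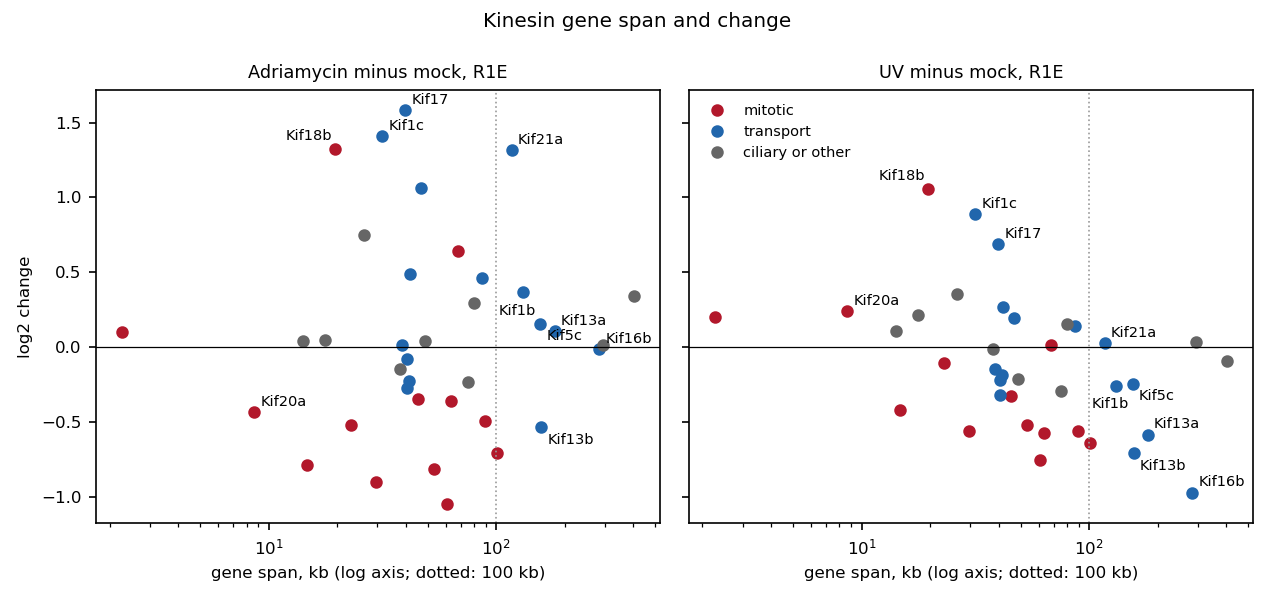
Log2 change of each of the 37 kinesin genes in R1E cells against the gene's span in kb (log axis), after adriamycin (left) and after UV (right), coloured by class, with the dotted line at 100 kb. To the right of the line 6 of 9 genes fell after UV and 0 rose, against 2 that fell and 3 that rose after adriamycin.

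In p53-/- cells 0 of the 37 kinesins were called after adriamycin, in a comparison in which 0.0953% of all genes (19 genes) were called by limma, 0.0150% higher and 0.0803% lower. At an unadjusted p below 0.05, 10 kinesins were lower, 8 of them mitotic, and 0 were higher, where 11.6% of all genes passed and 3.93% were lower. The median standard error of a log2 change was 0.14 over all genes in these 6 arrays and 0.06 in the R1E arrays. The median log2 change was -0.34 over the mitotic kinesins, with 12 of 13 below 0, and -0.02 over the transport kinesins, beside 0.06 over all genes. Against the mean of the untreated arrays, the median deviation of the mitotic kinesins was -0.40, -0.24 and -0.41 on the adriamycin arrays and 0.08, 0.07 and -0.11 on the untreated arrays. Groups did not overlap for 7 of 13 mitotic and 1 of 15 transport kinesins, as for 17.5% of all genes. With arrays centred, 4.17% of called genes were higher in place of 15.8%.

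The mitotic kinesins farthest from 0 in p53-/- cells were Kif20b and Kif11. Kif20b read 8.16, 8.16 and 7.59 after adriamycin, against 8.70, 8.57 and 8.38 untreated, a log2 change of -0.58 ± 0.17 (SE, adjusted p = 0.235). Kif11 read 7.75, 8.24 and 8.38, against 8.75, 8.81 and 8.51, a change of -0.57 ± 0.17 (SE, adjusted p = 0.241). Neither gene had groups that overlapped, but the spread among adriamycin arrays was wide.

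Kif23 read 8.32, 8.48 and 8.26 after adriamycin, against 8.80, 8.75 and 8.60 untreated, at -0.36 ± 0.13 (SE, adjusted p = 0.291). Kif18a read 7.12, 7.33 and 6.99, against 7.80, 7.83 and 7.08, and Kif4 read 6.79, 7.07 and 6.70, against 7.45, 7.59 and 7.01, so in both the third untreated array overlapped the adriamycin group. Without that array these 2 genes were called lower, at log2 changes of -0.67 (adjusted p = 0.0283) for Kif18a and -0.66 (adjusted p = 0.0367) for Kif4. Kif18b and Kif15, which rose in R1E cells, read 7.42, 7.69 and 7.39 against 7.69, 7.83 and 7.65, and 7.62, 7.89 and 7.72 against 8.27, 8.25 and 7.73. Their changes were -0.22 ± 0.13 and -0.34 ± 0.16 (SE), and their groups overlapped.

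The transport kinesins lay near 0 in p53-/- cells, and only Kif5b had groups that did not overlap. Kif5b read 8.37, 8.62 and 8.23 after adriamycin, against 8.73, 8.84 and 8.80 untreated, at -0.38 ± 0.13 (SE, adjusted p = 0.294). Kif17 read 4.54, 4.43 and 4.63, against 4.39, 4.45 and 4.83, only just above the background level of 4.33 in this set. Kif1c read 7.32, 7.32 and 7.07, against 7.33, 7.34 and 7.15, and Kif21a read 5.94, 6.25 and 5.93, against 6.09, 6.08 and 6.03.
Kif21b read 5.28, 5.29 and 5.36, against 5.31, 5.41 and 5.07, and Kif3a read 6.33, 6.57 and 6.53, against 6.78, 6.70 and 6.4. In each of these 5 genes the groups overlapped, and the log2 changes ran from -0.15 to 0.05.

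The difference between the adriamycin effects in R1E and p53-/- cells was then tested gene by gene. It was called for 12 of 37 kinesins, 8 with a higher and 4 with a lower effect in R1E cells, where 21.7% of all genes were called, 10.4% higher and 11.4% lower. The transport kinesins gave 5 higher and 1 lower, the mitotic kinesins 2 higher and 3 lower, and the others 1 higher. Without p53-/- adriamycin replicate 2 the calls were 7 higher and 1 lower, and all 3 lower calls of mitotic kinesins were lost. Without p53-/- adriamycin replicate 1 they were 7 higher and 2 lower. The labels give no p53 genotype for R1E cells. Genotype, cell line, set of arrays and processing tool differ together between the sets and cannot be told apart.

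The 8 kinesins with a higher effect in R1E cells had all risen there, and that rise is itself part of the difference. The log2 change after adriamycin in R1E cells exceeded that in p53-/- cells by 1.61 ± 0.16 for Kif17 (SE, adjusted p = 1.15e-06), by 1.55 ± 0.14 for Kif18b (SE, adjusted p = 7.15e-07) and by 1.45 ± 0.14 for Kif1c (SE, adjusted p = 1.7e-06). The differences were 1.34 for Kif21a, 1.01 for Kif21b, 0.99 for Kif15, 0.68 for Kif19a and 0.64 for Kif3b. These 8 genes were near or below 0 in p53-/- cells, at -0.34 to 0.06. Kif27, Kif1b, Kif1a and Kif26b also rose in R1E cells, but their differences of 0.42, 0.39, 0.33 and 0.21 were not called.

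For most mitotic kinesins that fell in R1E cells no difference from p53-/- cells was called. It was -0.23 ± 0.18 for Kif20b, -0.22 ± 0.18 for Kif4 and 0.23 ± 0.18 for Kif11 (SE), which had the more negative value in p53-/- cells. A missed threshold at these errors does not show that the effects were equal. Kif18a, Kif23 and Kif22 had a lower effect in R1E cells, by differences of -0.62, -0.53 and -0.43 (adjusted p = 0.0403, 0.00948 and 0.0282), as did the transport kinesin Kif13b at -0.57 (adjusted p = 0.00891). The calls of Kif18a, Kif22, Kif23 and Kif19a were each lost without at least 1 of the p53-/- arrays, at adjusted p up to 0.157.

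**Figure D4:**
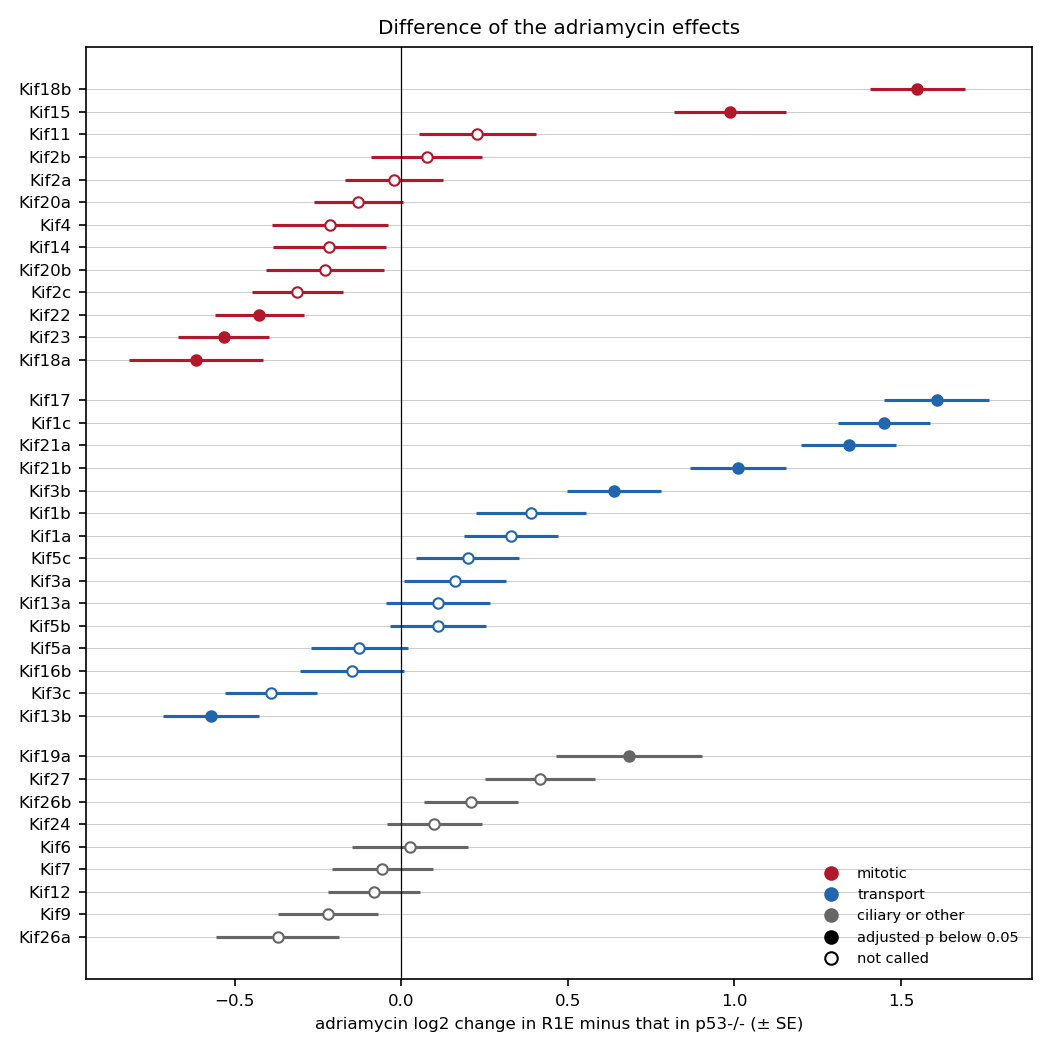
Adriamycin log2 change in R1E cells minus that in p53-/- cells, with its standard error, for the 37 kinesin genes by class; filled points have an adjusted p below 0.05. Kif17, Kif18b and Kif1c stand farthest to the right, at 1.61, 1.55 and 1.45, and Kif18a farthest to the left, at -0.62.

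Kinesins whose symbols lie outside the naming rule gave mixed results. Of 6 on the list, 4 were measured by a probe of their own. Cenpe, the kinetochore kinesin that helps chromosomes to congress, was higher after adriamycin, by 0.26 (adjusted p = 0.00116), and lower after UV, at -0.29 (adjusted p = 0.000434). Kifc3, a minus-end motor of cell junctions and Golgi, changed by -0.56 after adriamycin and -0.35 after UV, and Stard9, a centrosomal kinesin of mitosis, by 0.43 after adriamycin, with -0.02 after UV not called.

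Among genes that work with the mitotic kinesins, most were lower after adriamycin and most after UV, though not always the same ones. Of 25 partners of the spindle and of cytokinesis, all measured, 19 fell and 2 rose after adriamycin in R1E cells and 15 fell and 3 rose after UV, with median log2 changes of -0.42 and -0.18. Of all genes 25.6% were lower and 22.1% higher after adriamycin, and 21.2% lower and 22.6% higher after UV. Plk1, the polo kinase that drives entry into mitosis, fell by 1.23 after adriamycin (adjusted p = 2.39e-12) and by 0.23 after UV. Nusap1, a spindle microtubule binder, fell by 0.90 and 0.56, and Racgap1, the partner of Kif23 in centralspindlin, fell by 0.86 and 0.26. After UV the largest falls were those of the microtubule polymerase Ckap5 at -0.63, of Nusap1 and of the kinetochore scaffold Knl1 at -0.54. In p53-/- cells the median of the list was -0.40 with 0 called.

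Partners of the transport kinesins showed no common direction. Of 16 light chains, adaptors and cargo partners 12 were measured, and 3 rose and 4 fell after adriamycin, while 5 rose and 6 fell after UV. These are 7 of 12 called after adriamycin, beside 47.7% of all genes, and 11 of 12 after UV, beside 43.9%. The adaptors Mapk8ip3 and Spag9, which link kinesin-1 to JNK signalling, moved apart. Mapk8ip3 was higher by 0.80 after adriamycin and 0.91 after UV, and Spag9 changed by -0.56 and -0.79. Plekhm2, which couples kinesin-1 to lysosomes, was higher by 0.33 and 0.22. Kifap3, which ties the kinesin-2 motors to cargo, stood at 0.00 after adriamycin (not called) and fell by 0.68 after UV. It was named for its change after UV, among the 3 largest called of this list.

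Cytoplasmic dynein, the motor that walks the opposite way, was read with dynactin, and its genes went in both directions. Of 19 genes 18 were measured, with 6 higher and 5 lower after adriamycin and 5 higher and 3 lower after UV, beside 47.7% and 43.9% of all genes called in either direction. The dynein regulator Ndel1 and the dynactin subunit Dctn1 were higher after adriamycin, by 0.72 and 0.69, and after UV, by 0.42 and 0.40. Among subunits, the intermediate chain Dync1i2 changed by -0.42 after adriamycin and -0.64 after UV, and the light chain Dynll2 by 0.28 and 0.55. Pafah1b1 (Lis1), which activates dynein, changed by -0.25 and -0.45.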

How the data were processed

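RNA of 18 mouse embryonic stem cell samples was measured on Affymetrix whole-transcript arrays, and the deposited values are log2 intensities in 1 table. Affymetrix Expression Console 1.1 made the 12 R1E columns, per the submitters' processing notes, by an algorithm not given in the sources used here. Those notes name RMA and Partek 6.4 for the 6 p53-/- columns. Of 28853 probes, 28815 had a value on all arrays and 21780 of these carry 1 gene symbol in the platform annotation; for each of 19935 genes the brightest of its probes, by mean over all 18 arrays, was kept. Precision depends on the number of arrays and on the spread among them.

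From these values limma 3.58.1 in R 4.3.3 fitted 1 mean per group (lmFit, eBayes), over the 12 R1E arrays and over the 6 p53-/- arrays, with Benjamini-Hochberg adjustment over all genes and a threshold of 0.05. The difference of the adriamycin effects was divided by the root of the summed squared moderated standard errors, with Satterthwaite degrees of freedom. The scripts were tested on simulated data. The background level was the 95th percentile of the means of olfactory and vomeronasal receptor genes. Gene spans and promoters come from RefSeq (GRCm38.p6), and the build of the array design was not used.

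Values on every array are given for Kif11, Kif23, Kif5b and Kif3a and, for each comparison with a control, for up to 4 mitotic, 4 transport and 3 other kinesins with the largest called change. From every other gene list up to 3 genes with the largest called change were named. Kif15, Kif20a, Kif4, Kif13b, Kif24 and others outside this rule in a comparison were added after their values were seen. The members and lists were chosen with earlier results of these data known. Alternatives were quantile normalization, centring, a filter on dim genes, the mean of a gene's probes, an intensity trend in the prior, a replicate block, other sets of arrays in the fit, leaving out each array, and the mitotic class without Kif2a and Kif2b.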

Additional observations from a re-analysis of the deposited data

Results flagged for a closer look

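In groups of 4 arrays, the gap of the outermost array to its neighbour was set against the range of the group. Dixon's critical value was exceeded in 5 of 111 groups of R1E arrays, and chance alone gives about 1 in 20. Kif3c read 6.32 on adriamycin replicate 1, against 6.52 to 6.55 on the other adriamycin arrays, and Kif1b read 8.37 on adriamycin replicate 4, against 8.39 to 8.40. On mock arrays Kif3b read 7.54 on replicate 4, against 7.65 to 7.67 on the others. Mock replicate 2 stood apart for Kif5a, at 7.21 against 7.34 to 7.35, and for Kif5b, at 9.59 against 9.53 to 9.54.

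The adriamycin effect differed between R1E and p53-/- cells, by the test of the difference itself, for 12 kinesins. Of all genes 21.7% were called by that test. The log2 change in R1E cells minus that in p53-/- cells was 1.61 for Kif17, 1.55 for Kif18b, 1.45 for Kif1c, 1.34 for Kif21a and 1.01 for Kif21b. It was 0.99 for Kif15, 0.68 for Kif19a and 0.64 for Kif3b. It was negative for Kif18a at -0.62, Kif13b at -0.57, Kif23 at -0.53 and Kif22 at -0.43. The calls of Kif18a, Kif19a, Kif22 and Kif23 were lost under some alternatives, as given below. Genotype and cell line, and the set of arrays with its processing, cannot be told apart in these differences.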

How the results depend on the processing

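No called direction reversed under any alternative run. The counts of kinesins called, both directions summed, stayed within 1.5 times of those reported, except in p53-/- cells, where 2 were called, both lower, without untreated replicate 3. By direction, the 4 lower calls for the difference of effects were 2 without p53-/- adriamycin replicate 1 and 1 without replicate 2. Leaving out each array in turn gave 26 to 27 kinesins for adriamycin in R1E cells, 23 to 28 for UV, 22 to 25 for adriamycin against UV, 0 to 2 in p53-/- cells and 8 to 13 for the difference of effects. The mitotic median then ranged from -0.52 to -0.46 after adriamycin and -0.45 to -0.37 after UV in R1E cells and from -0.42 to -0.29 in p53-/- cells, and the transport median from 0.13 to 0.20, -0.21 to -0.15 and -0.05 to 0.05.

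Some class medians moved by more than their spread over arrays. The mitotic median after adriamycin in R1E cells was -0.44 with quantile normalization, -0.62 with arrays centred and -0.43 with the mean of a gene's probes. After UV it was -0.37, -0.49 and -0.32 under the same settings and -0.47 without dim genes, and in p53-/- cells it was -0.43 with arrays centred. The transport median with arrays centred was 0.034 after adriamycin and -0.26 after UV in R1E cells.

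The labels do not say whether replicate numbers pair the samples, and correlations cannot settle it. The deviations of arrays with the same number correlated weakly, at -0.14 to 0.16 in R1E cells and -0.10 to 0.19 in p53-/- cells. With the replicate number as a block 26, 28, 24, 0 and 12 kinesins were called in the comparisons in the order above.

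The calls that were lost under some alternative were those of Kif21b and Kif3c after UV and of Kif13b between the agents, as given above, and of Kif18a, Kif19a, Kif22 and Kif23 for the difference of effects. For Kif18a it was lost without untreated replicate 3 or any 1 p53-/- adriamycin array, and for Kif23 without adriamycin replicate 2 (adjusted p = 0.0509). Kif22 lost it without untreated replicate 1 or 2 or adriamycin replicate 1 or 2, and Kif19a without R1E mock replicate 1, untreated replicate 2 or 3 or any 1 p53-/- adriamycin array. The causes were not tested. Kinesins near the background level, Kif2b, Kif27, Kif9, Kif26b, Kif6 and Kif12, had little signal over background.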
